A study of Mus musculus with 6 samples.

Results

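Molecular chaperones of the HSP70, HSP90, DNAJ and chaperonin families were examined in the gastrocnemius muscle of mice with and without a C26 tumor. Genes were included when their symbol began with Dnaja, Dnajb, Dnajc, Hspa, Hsp90 or Cct followed by a digit, or was Tcp1, Hspd1, Hspe1 or Hsph1, and Hspa5 was left out. The rule is by name alone, though these families were chosen with earlier results of these data known, and it took 65 of the 13363 listed genes. They were 5 cytosolic HSP70 genes, 5 mitochondrial or divergent HSP70 genes, 3 HSP110 genes, 3 HSP90 genes, 2 mitochondrial chaperonin genes, 9 genes of the cytosolic chaperonin, 4 DNAJA, 10 DNAJB and 24 DNAJC genes. Of 73 annotated protein-coding genes that the rule takes, 8 had no row in the table analysed here (Cct8l1, Dnajb3, Dnajb8, Dnajb13, Dnajc5b, Dnajc5g, Dnajc6 and Dnajc22).

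HSP70 proteins bind short exposed stretches of unfolded proteins in a cycle driven by ATP. J-domain proteins of the DNAJ families deliver the clients and trigger ATP hydrolysis, and HSP110 proteins release the nucleotide so that the cycle can start again. HSP90 acts later, on partly folded kinases, steroid receptors and, in muscle, myosin. The chaperonins are closed chambers, HSP60 with its lid HSP10 in mitochondria and the TRiC (CCT) ring in the cytosol, where actin and tubulin fold. Working muscle depends on this machinery to replace damaged sarcomere proteins, and many of its cytosolic members are classical targets of the heat shock factor HSF1.

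Gastrocnemius muscles came from 3 C26 mice and from 3 control mice, with 1 library per mouse. All were Balb/c mice, which the study's methods describe as males purchased at 6 weeks of age. C26 is a mouse colon adenocarcinoma cell line, and it was injected under the skin of the flank in the C26 group, while the control mice carried no tumor. The tumor grows from 1 cell line in 1 strain, and tumor load and wasting were not given per muscle. Deposited values are FPKM, which divide reads by transcript length and library total, and below they are given per muscle or as mean ± SD of 3 muscles. Fold changes are C26 minus control on the log2(TPM + 1) scale after TMM scaling, which understates changes of genes near or below 1 FPKM. They were tested with limma and Benjamini-Hochberg adjustment over all listed genes, and a gene rose or fell when its adjusted p was under 0.05. The depth of each library is unknown, since FPKM hold no read counts.

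Muscle fiber genes were abundant in every library. The 8 fiber genes set as markers (Acta1, Ckm, Myh4, Myh1, Tnnt3, Des, Pvalb and Ttn) summed to between 54313 and 76409 FPKM in C26 muscles and to between 104700 and 108290 in control muscles. Of these, Des rose, Pvalb fell and 6 did not pass the test, with a median log2 fold change of -0.05. Of 11 adipocyte markers, 7 fell, and their sum was 318 to 494 FPKM in C26 muscles against 5655, 2835 and 777 in control replicates 1, 2 and 3. Of 9 fibroblast markers 5 fell, and of 8 endothelial markers 3 fell. Among all genes tested 14.5% fell. None of the 7 listed leukocyte markers passed the test (limma, 3 had an unadjusted p under 0.05), but their sum was 1386 FPKM in control replicate 3, with Cd74 at 1143 FPKM, and 70.4 and 104 in the other controls. In C26 muscles the sum was 40.4 to 288 FPKM, highest in replicate 2, where Cd68 alone had 247 FPKM. In whole muscle, fewer cells of a type and less RNA per cell cannot be told apart.

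Chaperone genes were more often higher than lower in C26 muscles. Of the 65 genes, 34 rose and 5 fell, and 26 did not pass the test, so that 39 were called where 33.8% of all genes were. The share that rose was 52.3%, beside 19.4% of all genes tested, and the share that fell was 7.69%, beside 14.5% of all genes. The median log2 fold change was 0.62 over the 65 genes and -0.05 over all genes. On the scaled log2 values, every C26 muscle was above every control muscle for 39 of the chaperone genes and below for 8, where 27.0% and 26.5% of all genes had such a separation. At a fold change above 4, 3 chaperone genes rose (Dnaja4, Dnajb9 and Hspa1a) and 0 fell, beside 1.77% and 1.73% of all genes. The lowest log2 fold change was -1.23, and with a pseudocount of 0.1 in limma 1 gene, Hspa12a, fell by over 4-fold. Among genes with a mean TPM of at least 1, 35 of 63 chaperone genes rose, beside 22.6% of such genes. After quantile normalization 23 rose, beside 16.8% of all genes. With the FPKM used as deposited, without rescaling, 21 rose and 8 fell, beside 12.6% and 18.7% of all genes. The plot of fold changes by class shows that the genes that rose were spread over every class.

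**Figure D1:**
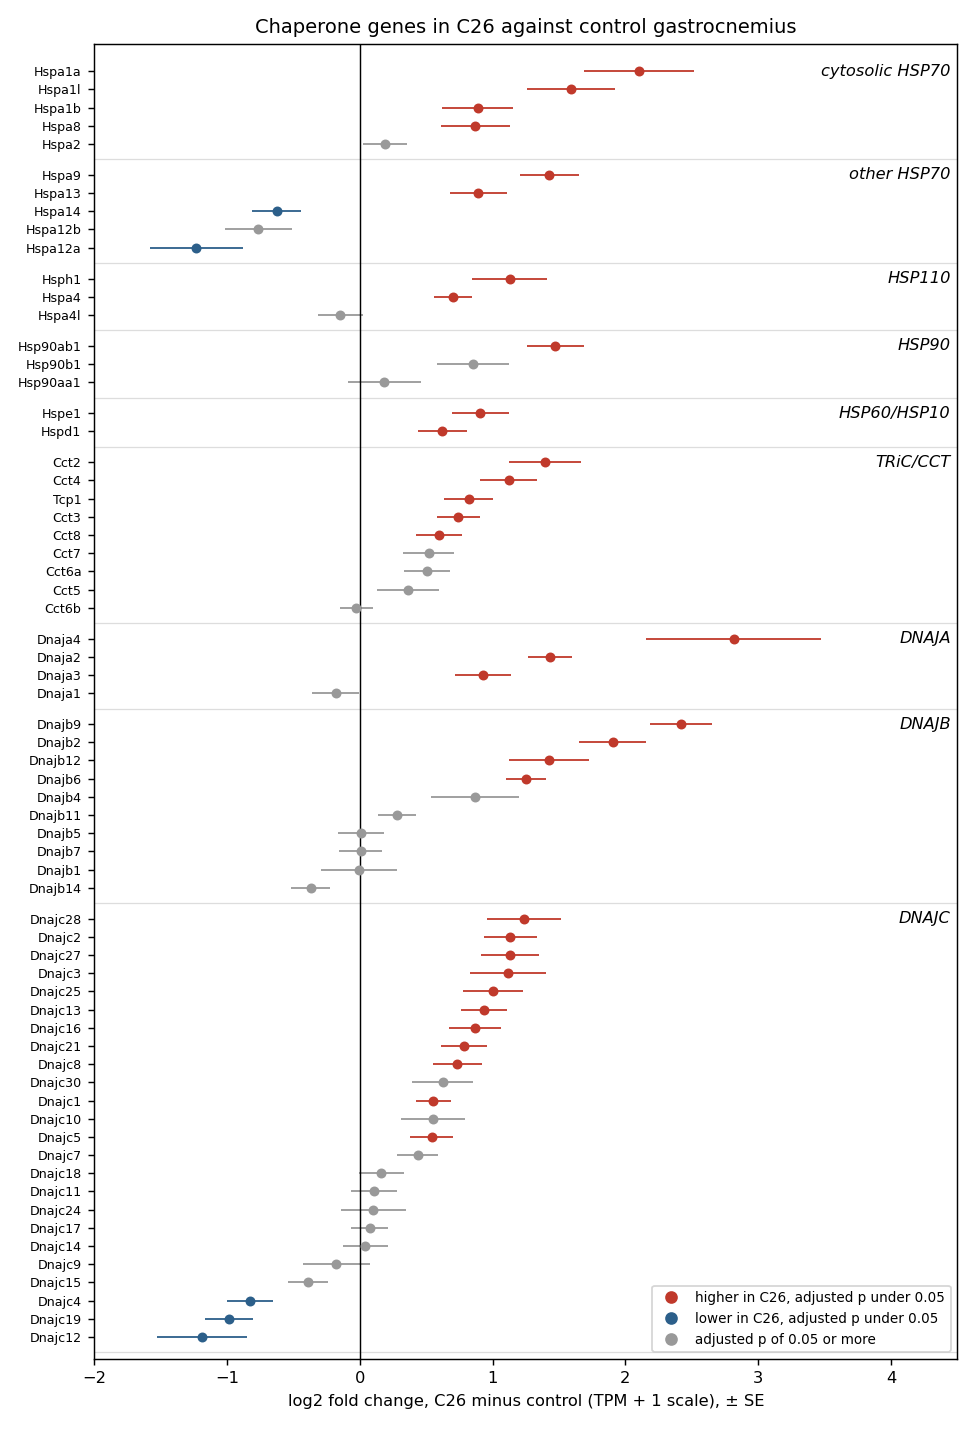
Log2 fold change of each of the 65 chaperone genes, C26 minus control, on the log2(TPM + 1) scale, with bars of 1 SE and genes grouped by class. Red points rose and blue points fell with an adjusted p under 0.05 in limma, and grey points did not pass; 34 points are red and 5 are blue.

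These counts and those over all genes depended on single muscles, as fits that each left out 1 muscle showed. With C26 replicate 1 left out, 11 chaperone genes rose (16.9%, beside 8.46% of all genes). With C26 replicate 2 left out 18 rose (27.7%, beside 11.4%), and with control replicate 1 left out 8. Without C26 replicate 3 the count was 41. Without control replicate 2 or control replicate 3 it was 26 (40.0%, beside 15.0% and 16.7% of all genes). The share of chaperone genes that rose was 63.1% beside 24.8% of all genes without C26 replicate 3. It was nearest to that of all genes without control replicate 1, at 12.3% beside 8.62%. The 9 chaperone genes that passed the test in all 6 fits were Hspa9, Hsp90ab1, Dnaja2, Dnajb2, Dnajb6, Dnajb9, Dnajc2, Dnajc13 and, as the only one that fell, Dnajc19. Of 9 other settings with all muscles, the calls for Hspa8, Cct8 and Dnajc5 held in 3 and that for Hspd1 in 4.

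**Figure D2:**
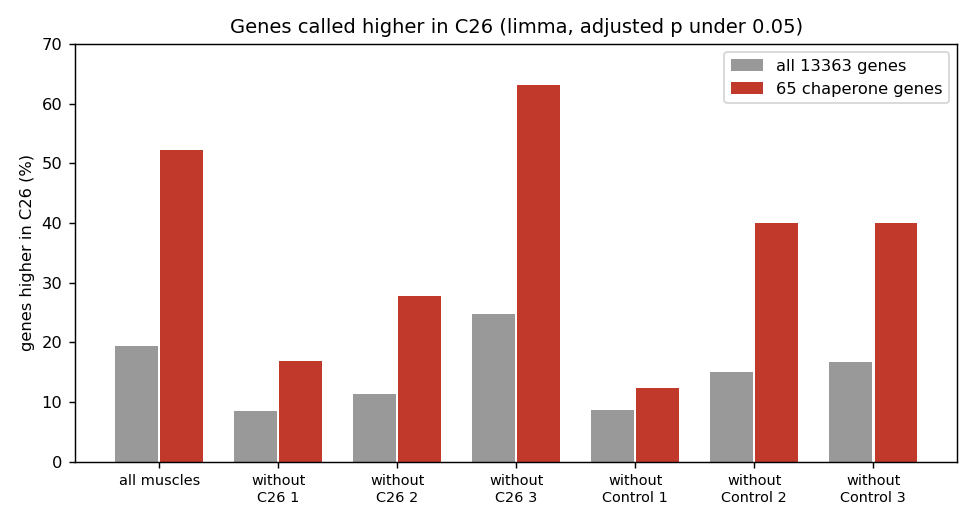
Percentage of genes called higher in C26 muscles by limma at an adjusted p under 0.05, for all 13363 genes (grey) and for the 65 chaperone genes (red), with all 6 muscles and after dropping 1 of the muscles. The red bar is above the grey bar in each fit, and it is lowest, at 12.3%, without control replicate 1.

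The 3 C26 muscles differed in their chaperone levels. Of the 34 chaperone genes that rose, 28 had their lowest C26 value in replicate 3 and 27 had their highest in replicate 2. Over all 65 chaperone genes, 64.6% were lowest in C26 replicate 3, beside 40.2% of all genes. Summed over the 65 genes, chaperones made up 0.899%, 1.10% and 0.598% of all FPKM in C26 replicates 1, 2 and 3, and 0.396%, 0.431% and 0.403% in the control replicates. All C26 muscles were thus above all controls, and replicate 3 was the closest to them.

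**Figure D3:**
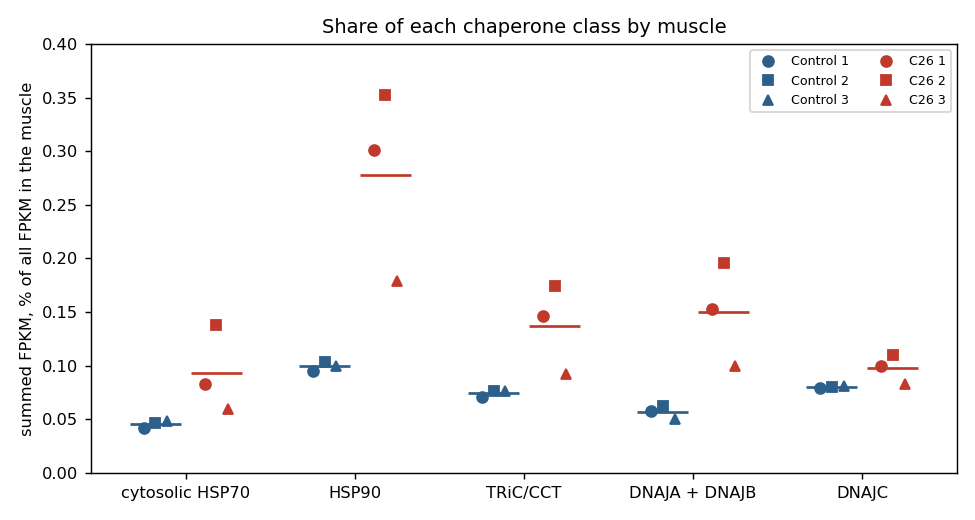
Summed FPKM of each chaperone class as a percentage of all FPKM in the muscle, by group and replicate, with a horizontal line at the mean of 3 muscles. C26 replicate 2 is highest and C26 replicate 3 lowest among C26 muscles in all 5 classes shown, and no C26 point is at or below a control point of its class.

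Hspa8 is the constitutive cytosolic HSP70, and it made up between 93.0% and 96.9% of the summed FPKM of the 5 cytosolic HSP70 genes in every muscle. Its level is uncertain, since 68.8% of its stretches of 50 bases also stand in other transcripts. It had 410, 695 and 324 FPKM in C26 and 264, 280 and 319.8 FPKM in controls. The groups were separate, but C26 replicate 3 lay just above control replicate 3. Its log2 fold change was 0.87 (SE 0.26, limma adjusted p = 0.0437), and it passed the test in 1 of the 6 leave-one-out fits, the one without C26 replicate 3 (limma adjusted p = 0.0154). With FPKM as deposited it did not pass (limma adjusted p = 0.126).

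Hspa1a and Hspa1b encode the stress-inducible HSP70, which is nearly silent in resting tissue. Hspa1a had 8.75, 10.15 and 2.75 FPKM in C26 and 1.09, 1.40 and 1.16 FPKM in controls. Each C26 value was above each control value, and C26 replicate 3 was again the lowest. The log2 fold change was 2.10 (SE 0.42, limma adjusted p = 0.0130), a 4.30-fold difference. Hspa1b stayed at lower levels, with 2.59, 1.90 and 1.06 FPKM in C26 muscles and 0.94, 0.94 and 0.56 in controls, and rose by a log2 fold change of 0.89 (limma adjusted p = 0.0430). The adjacent Hspa1l, better known from testis, had 17.0, 39.1 and 16.5 FPKM against 9.38, 8.23 and 6.98, a log2 fold change of 1.59 (limma adjusted p = 0.0146). These genes lie side by side on chromosome 17 of GRCm38, Hspa1b from 34956429 to 34959238, Hspa1a from 34969359 to 34972156 and Hspa1l from 34972703 to 34979228. Between 62.3% and 71.4% of the stretches of 50 bases in their transcripts also stand in transcripts of other genes, foremost each other for Hspa1a and Hspa1b and the antisense Gm10501 for Hspa1l. Reads of 50 bases could therefore be split between these genes by RSEM, and the 3 levels are uncertain as separate values. Hspa2, another HSP70 of germ cells, had 1.59 to 2.12 FPKM in C26 muscles and 1.58 to 1.90 in controls and did not pass the test.

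Hspa9 encodes mortalin, the mitochondrial HSP70 that pulls imported proteins across the inner membrane. The C26 muscles had 273, 296 and 222 FPKM and the controls 103, 140 and 98.9. No C26 value came near the controls, and the log2 fold change was 1.43 (SE 0.22, limma adjusted p = 0.00695). Hspa13, a small HSP70 relative of the endoplasmic reticulum (ER), had 4.39, 6.06 and 3.01 FPKM in C26 muscles and 2.64, 2.34 and 2.25 in controls, and rose by 0.89 on the log2 scale (limma adjusted p = 0.0231). Hspa14 works at the ribosome together with Dnajc2, and it fell while Dnajc2 rose. Its values were 5.53, 4.89 and 5.61 FPKM in C26 muscles and 8.62, 8.61 and 13.1 in controls, with the highest in control replicate 3, the muscle with the high leukocyte markers. Hspa14 had a log2 fold change of -0.63 (limma adjusted p = 0.0401) and passed in 0 of the 6 leave-one-out fits.

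The divergent HSP70 genes Hspa12a and Hspa12b were lower in all C26 muscles. Hspa12a had 0.22, 0.16 and 0.36 FPKM in C26 muscles and 2.73, 1.66 and 0.68 in controls, a log2 fold change of -1.23 (limma adjusted p = 0.0367). It was -2.18 with a pseudocount of 0.1 and -0.90 after quantile normalization, and the call held in 6 of 9 other settings and in 2 of the 6 leave-one-out fits, those without C26 replicate 3 or control replicate 3. Among the controls replicate 1 was highest and replicate 3 lowest. Hspa12b, known from endothelial cells, had 3.50, 2.73 and 3.58 FPKM against 9.36, 6.74 and 5.07 and did not pass (limma adjusted p = 0.0579). The 8 endothelial markers summed to 52.0 to 61.5 FPKM in C26 muscles and to 70.1 to 97.5 in controls. Among the controls both genes had the order of the adipocyte markers, and the endothelial sum was lowest in replicate 2. The part of other cell types in these differences was not tested.

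HSP110 proteins are the exchange factors that reset HSP70. Hsph1 had 15.1, 32.5 and 18.5 FPKM in C26 muscles and 10.1, 11.8 and 10.4 in controls. The lowest C26 muscle was above the highest control, with a log2 fold change of 1.13 (SE 0.28, limma adjusted p = 0.0249). Hspa4 was less variable, at 28.4, 31.05 and 27.9 FPKM in C26 muscles and 18.4, 21.0 and 22.4 in controls, and rose by 0.70 on the log2 scale (limma adjusted p = 0.0141). Hspa4l was below 1 FPKM in every muscle and did not pass.

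Among the HSP90 genes, the constitutive Hsp90ab1 changed and the stress-inducible Hsp90aa1 did not pass the test. Hsp90ab1 was the most abundant chaperone gene, with 1488, 1756 and 976 FPKM in C26 muscles and 545, 586 and 585 in controls. The groups were far apart, and the log2 fold change was 1.47 (SE 0.21, limma adjusted p = 0.00598). It lay between 1.32 and 1.76 with a muscle left out. Hsp90aa1 had 24.9, 35.3 and 21.5 FPKM in C26 muscles and 23.9, 19.9 and 42.3 in controls. Its highest value was in control replicate 3, and the groups overlapped (log2 fold change 0.18, limma adjusted p = 0.621), with the sign turning to -0.03 for FPKM as deposited and to -0.21 after quantile normalization. Its sequence is shared with other genes, and 50.1% of its stretches of 50 bases stand in other transcripts, so its level is uncertain. The corresponding share was 4.13% for Hsp90ab1. Hsp90b1 (GRP94), the HSP90 of the ER, had 85.7, 117 and 51.0 FPKM against 52.8, 42.1 and 60.45, and did not pass (limma adjusted p = 0.0534). Its FPKM overlapped in C26 replicate 3, while on the scaled log2 values every C26 muscle was above every control.

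**Figure D4:**
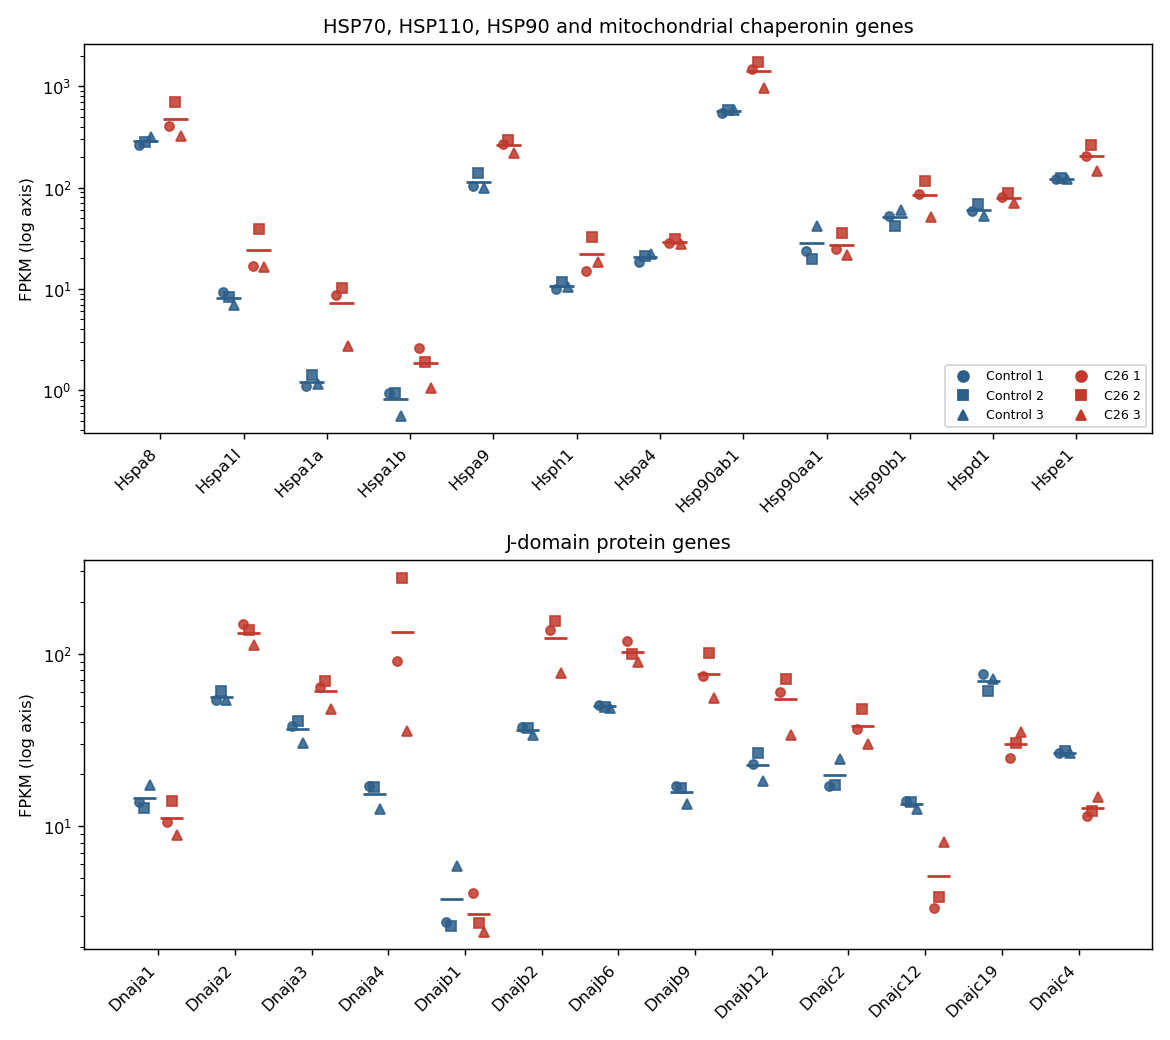
FPKM of single muscles on a logarithmic axis for HSP70, HSP110, HSP90 and mitochondrial chaperonin genes (top) and for J-domain protein genes (bottom), in control (blue) and C26 (red) muscles, with marker shapes for replicates 1 to 3 and a line at the mean of 3 muscles. Hsp90ab1, Hspa9, Dnajb2 and Dnajb9 show separate groups, while Hsp90aa1, Dnaja1 and Dnajb1 overlap.

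The mitochondrial chaperonin genes Hspd1 (HSP60) and Hspe1 (HSP10) both rose. Hspd1 had 80.3, 88.6 and 70.6 FPKM in C26 muscles and 58.9, 68.6 and 52.7 in controls, a log2 fold change of 0.62 (SE 0.19, limma adjusted p = 0.0430). Hspe1 had 207, 265 and 145 FPKM against 122, 125 and 122, a log2 fold change of 0.91 (SE 0.21, limma adjusted p = 0.0205). For both genes all C26 values were above all control values. Both calls were lost with FPKM as deposited (limma adjusted p = 0.0847 and 0.0613). Pseudogenes and other gene models share 42.1% of the stretches of 50 bases of Hspd1 and 36.1% of those of Hspe1. The genes stand head to head on chromosome 1 and are transcribed from a shared promoter region, the kind of site where HSF1 is known to act.

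A strict heat shock element, the run GAANNTTCNNGAA or its reverse complement TTCNNGAANNTTC with N for any base, was therefore looked up in RefSeq promoter windows of GRCm38.p6, from 250 bases before to 50 bases after a start site. It stands in 198 of 32851 windows (0.603%). Among the 65 chaperone genes, 53 had a window, and the element stands in 6 of their 70 windows, from the 4 genes Hspe1, Hspd1, Hsph1 and Dnajb6, some of whose windows overlap. No window was matched for Cct4, Dnajc2, Dnajc5, Dnajc11, Dnajc12, Dnajc18, Dnajc30, Hsp90aa1, Hsp90ab1, Hspa8, Hspa9 and Hspa13. The elements of Hspe1 and Dnajb6 are shown in capitals in the lines below, and Hspe1 holds a pair that overlaps in 1 run that is also the match of Hspd1. The Hspe1 stretch is chr1:55088053-55088082 on the plus strand, at -95 to -66 relative to its start, and the Dnajb6 stretch is chr5:29735843-29735872 on the plus strand, at -55 to -26. In Hsph1 the match TTCTGGAAAGTTC begins 15 bases after a start site. The absence of the run in other windows says only that these letters are not there.
Hspe1: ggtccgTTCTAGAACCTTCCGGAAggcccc
Dnajb6: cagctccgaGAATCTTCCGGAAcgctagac

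The TRiC ring is built from a single copy of each of 8 different subunits in each ring, so that the levels of its genes can be compared with each other. Of the 8 broadly expressed subunit genes, 5 rose (Cct2, Cct4, Tcp1, Cct3 and Cct8), beside 19.4% of all genes, and all 8 had positive log2 fold changes, between 0.36 and 1.39. Under quantile normalization that of Cct5 turned to -0.03. Cct2 had 156, 185 and 86.3 FPKM in C26 muscles and 52.8, 55.3 and 72.5 in controls, a log2 fold change of 1.39 (SE 0.27, limma adjusted p = 0.0124). Cct4 had 123, 152 and 82.0 FPKM against 58.8, 61.4 and 63.8, a log2 fold change of 1.12 (limma adjusted p = 0.0117). Both were separate between the groups in every muscle. Tcp1, the founding subunit, had 131, 151 and 93.7 FPKM against 78.2, 82.6 and 80.4, and rose by 0.82 on the log2 scale (limma adjusted p = 0.0183).

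The other subunits moved less. Cct3 rose from 45.1 ± 7.01 to 65.7 ± 12.2 FPKM and Cct8 from 51.7 ± 3.08 to 68.5 ± 14.7 FPKM (limma adjusted p = 0.0159 and 0.0398). The call for Cct8 held in 3 of 9 other settings with all muscles and in 1 of the 6 leave-one-out fits, and after quantile normalization its log2 fold change was 0.18. For Cct8 the FPKM of C26 replicate 3, 52.4, lay within the controls at 48.6 to 54.8. Cct6a and Cct7 did not pass (limma adjusted p = 0.0640 and 0.0753), and C26 replicate 3 lay below the control FPKM for Cct6a and within it for Cct7. Cct5 had 76.0, 99.7 and 49.3 FPKM in C26 muscles and 62.0, 65.01 and 68.1 in controls, so that C26 replicate 3 was below all controls (limma adjusted p = 0.264). As a share of the summed FPKM of the class, Cct2 took 16.0% to 20.2% in C26 muscles and 11.4% to 13.8% in controls, and Cct5 took 9.17% to 10.6% against 13.0% to 13.6%. The testis form Cct6b was below 1 FPKM in every muscle.

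**Figure D5:**
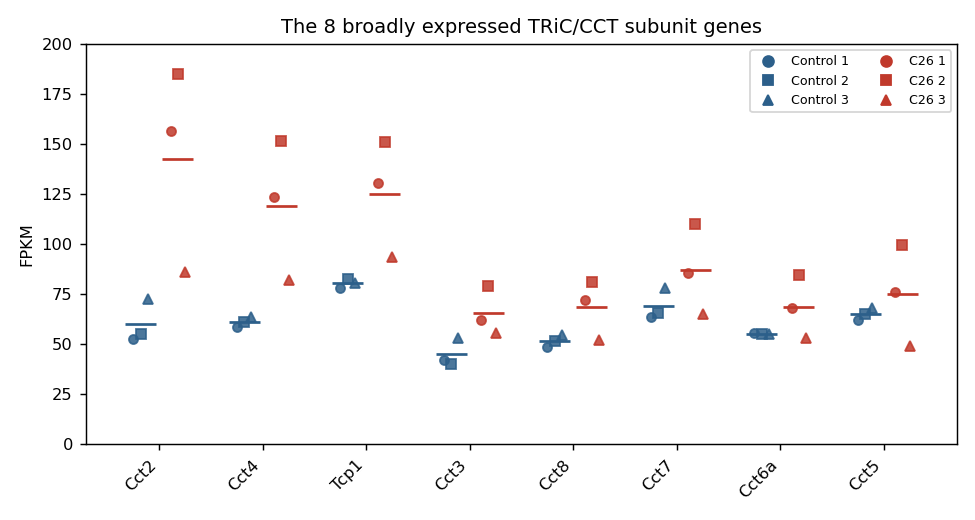
FPKM of the 8 broadly expressed TRiC subunit genes in single control (blue) and C26 (red) muscles, on a linear axis from 0, with marker shapes for replicates 1 to 3 and a line at the mean of 3 muscles. Cct2 and Cct4 show the widest separation between the groups, and C26 replicate 3 is the lowest C26 point for each gene.

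J-domain proteins choose the clients of HSP70, and 18 of their 38 genes rose while 3 fell, beside the 19.4% and 14.5% of all genes. In the DNAJA class, the general cytosolic HSP70 partner Dnaja2 had 148, 137 and 112 FPKM in C26 muscles and 53.8, 60.4 and 54.1 in controls. All C26 values were far above all controls, and the log2 fold change was 1.44 (SE 0.17, limma adjusted p = 0.00355). Its close relative Dnaja1 had 10.5, 14.0 and 8.83 FPKM against 13.8, 12.7 and 17.2, and the groups overlapped (limma adjusted p = 0.442). Of the stretches of 50 bases of Dnaja1, 27.1% also stand in other transcripts, mainly of the gene models Gm15542 and Gm7816 and of the antisense Smu1. Dnaja3 of the mitochondria had 64.1, 69.3 and 47.8 FPKM against 38.0, 40.7 and 30.5, with separate groups (log2 fold change 0.93, limma adjusted p = 0.0182).

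Dnaja4 had the largest fold change of the 65 genes and the largest SE on the log2 scale. Its C26 muscles had 90.2, 275 and 35.6 FPKM and its controls 17.0, 16.8 and 12.5. Replicate 2 alone had more than the other C26 muscles together, and the lowest C26 muscle was still above the controls. The log2 fold change was 2.82 (SE 0.66, limma adjusted p = 0.0206), between 2.09 and 3.57 with a muscle left out, and 3 of those 6 fits passed. Without C26 replicate 1, control replicate 1 or control replicate 3 the limma adjusted p was 0.0679, 0.0667 or 0.0506. The end of Dnaja4 overlaps the oppositely transcribed Wdr61, which shares 42.7% of its stretches of 50 bases, and without strand reads of the genes cannot be told apart. Wdr61 itself had 15.8, 12.1 and 18.8 FPKM in C26 muscles and 12.7, 13.3 and 13.0 in controls and did not pass (limma adjusted p = 0.157).

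In the DNAJB class 4 of 10 genes rose, beside 19.4% of all genes. By limma 0 fell, and 1 gene, Dnajb14, was lower with an unadjusted p under 0.05. Dnajb9 (ERdj4), a partner of the ER HSP70 and a known target of the unfolded protein response, had 74.4, 100.45 and 55.4 FPKM in C26 muscles and 17.1, 16.65 and 13.5 in controls. The groups were far apart at their nearest values. The log2 fold change was 2.42 (SE 0.23, limma adjusted p = 0.00226), a 5.35-fold difference, and it lay between 2.24 and 2.67 with a muscle left out. Dnajb2, which binds ubiquitin chains and hands clients to the proteasome in neurons and muscle, had 138, 155 and 77.7 FPKM against 37.8, 37.2 and 33.9. Its values were separate in every muscle, with a log2 fold change of 1.91 (SE 0.25, limma adjusted p = 0.00497).

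Dnajb6 sits at the Z-disc, and its mutations cause a limb-girdle muscular dystrophy. It had 119, 99.9 and 90.1 FPKM in C26 muscles and 50.5, 49.2 and 48.7 in controls. The C26 values were all well above the tightly grouped controls, and the log2 fold change was 1.25 (SE 0.15, limma adjusted p = 0.00395). Of its stretches of 50 bases, 26.6% also stand in other transcripts, of unnamed gene models. Dnajb12, an ER membrane protein that works in protein degradation, had 59.8, 71.5 and 33.6 FPKM against 22.9, 26.4 and 18.2, again with separate groups (log2 fold change 1.42, limma adjusted p = 0.0156). Dnajb1, the HSP40 that is induced with HSP70 under heat, had 4.11, 2.74 and 2.44 FPKM in C26 muscles and 2.78, 2.63 and 5.90 in controls. The groups overlapped, with a log2 fold change of -0.01 (limma adjusted p = 0.989) whose sign turned positive with TPM without TMM, after quantile normalization and when the 20 most abundant genes were kept out of the scaling. Dnajb5, an abundant form in these muscles, had 65.2 to 69.3 FPKM in C26 muscles and 69.3 to 85.8 in controls and did not pass, nor did Dnajb4, Dnajb7 and Dnajb11.

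In the DNAJC class, whose members carry a J domain on otherwise unrelated proteins, 11 of 24 genes rose, 3 fell and 10 did not pass. The share that rose was 45.8%, beside 19.4% of all genes, and the share that fell was 12.5%, close to the 14.5% of all genes. Dnajc2, the ribosome-bound partner of Hspa14, had 36.5, 48.0 and 29.8 FPKM in C26 muscles and 17.2, 17.4 and 24.6 in controls. The lowest C26 muscle was above the highest control, with a log2 fold change of 1.13 (SE 0.20, limma adjusted p = 0.00917). Dnajc28 had 14.4, 9.73 and 10.5 FPKM against 4.99, 7.06 and 4.01 (log2 fold change 1.24, limma adjusted p = 0.0183). Dnajc27, which contains a Rab-like GTPase domain, had 23.2, 22.1 and 16.4 FPKM against 9.56, 12.8 and 9.33 (log2 fold change 1.13, limma adjusted p = 0.0121). Neither gene overlapped between the groups. The endosomal Dnajc13 rose from 3.42 ± 0.0321 to 6.22 ± 1.27 FPKM (limma adjusted p = 0.0107). Dnajc21, a factor of ribosome maturation, and Dnajc8, a spliceosome protein, rose by 0.79 and 0.73 on the log2 scale. The remaining genes that rose were Dnajc1, Dnajc3, Dnajc5, Dnajc16 and Dnajc25, with log2 fold changes between 0.54 and 1.11.

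The 3 DNAJC genes that fell were Dnajc19, Dnajc4 and Dnajc12. Dnajc19 (TIM14), the J protein that stimulates Hspa9 at the import channel, had 25.0, 30.2 and 35.2 FPKM in C26 muscles and 75.8, 61.1 and 71.1 in controls. The highest C26 muscle was far below the lowest control, and the log2 fold change was -0.98 (SE 0.18, limma adjusted p = 0.0107). Its relative Dnajc15 had 67.0, 67.0 and 76.2 FPKM against 108, 106 and 106, below all controls, and did not pass (limma adjusted p = 0.0890). Hspa9 rose in the same muscles, as did its exchange factor Grpel1, from 19.2 ± 1.19 to 43.0 ± 12.2 FPKM (limma adjusted p = 0.00807). The motor subunits Timm44 and Pam16 did not pass. Dnajc4 had 11.5, 12.2 and 14.8 FPKM in C26 muscles and 26.4, 27.3 and 26.6 in controls, far apart in every muscle (log2 fold change -0.82, limma adjusted p = 0.0153). Dnajc12, a cochaperone of the aromatic amino acid hydroxylases, had 3.37, 3.88 and 8.13 FPKM in C26 muscles and 14.0, 13.9 and 12.6 in controls (log2 fold change -1.19, limma adjusted p = 0.0372). All C26 values were below all controls, with C26 replicate 3 the nearest, and it passed in 1 of the 6 leave-one-out fits.

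Of the 65 genes, 10 are gathered here by their known location in the ER, after their values were seen. The list may leave out others, and its count depends on that choice. Of these 10 genes, 5 rose, close to the 52.3% of all 65 genes and beside 19.4% of all genes tested. Dnajb9, Dnajb12, Dnajc1, Dnajc3 and Hspa13 rose, as did Sec63, the J protein of the translocation channel (log2 fold change 1.31, limma adjusted p = 0.0180). Dnajc3, which binds misfolded proteins in the ER lumen, had 11.9, 18.3 and 7.12 FPKM in C26 muscles and 6.33, 5.19 and 6.17 in controls (limma adjusted p = 0.0278). Hsp90b1, Dnajb11, Dnajb14, Dnajc10 and Dnajc18 did not pass. A strict ER stress response element, the run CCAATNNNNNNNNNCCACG on either strand, stands in 39 of the 32851 promoter windows (0.119%) and in 2 of the 70 windows of chaperone genes, those of Dnajc3 and Hsp90b1. The Hsp90b1 promoter, which is shown because it holds a pair of these runs in front of a gene just short of the threshold, is on the minus strand at chr10:86705524-86705664, at positions -220 to -80 relative to the start, with the runs in capitals.
Hsp90b1: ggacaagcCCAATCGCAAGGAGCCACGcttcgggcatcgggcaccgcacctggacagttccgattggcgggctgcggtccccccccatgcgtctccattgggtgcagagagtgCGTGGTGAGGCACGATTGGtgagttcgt

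Partner genes of these chaperones were described from 5 lists with 64 listed genes, of which 27 rose and 2 fell, a share of 42.2% that rose beside the 19.4% of all genes. In the list of 29 partners of HSP70 and HSP90, 11 rose and 1 fell. Fkbp5, an HSP90 cochaperone of the glucocorticoid receptor and a well known glucocorticoid target, had 68.4, 96.8 and 67.8 FPKM in C26 muscles and 6.08, 7.07 and 6.80 in controls. Every C26 muscle was far above every control, with a log2 fold change of 3.62, a 12.3-fold difference (SE 0.18, limma adjusted p = 0.000822). The HSP90 cochaperone Ptges3 (p23) had 123, 119 and 64.0 FPKM in C26 muscles and 34.8, 33.7 and 38.4 in controls (log2 fold change 1.66, limma adjusted p = 0.00604). Bag3, which couples HSP70 to autophagy of damaged filaments, had 108, 78.1 and 90.1 FPKM against 38.7, 43.8 and 26.5 (log2 fold change 1.56, limma adjusted p = 0.00913). Both were above the controls in every C26 muscle. Hspbp1, an inhibitor of HSP70, had 9.25, 9.53 and 14.4 FPKM against 22.2, 21.4 and 26.2 and fell by 0.85 on the log2 scale (limma adjusted p = 0.0287). Hspbp1 passed in 1 of the 6 leave-one-out fits, and Fkbp5, Ptges3 and Bag3 passed in all 6. Stip1, which bridges HSP70 and HSP90, the ligase Stub1 and the myosin chaperone Unc45b did not pass.

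Of 5 heat shock factor and inhibitor genes, 3 rose, beside 19.4% of all genes. Hsf1 had 57.0, 64.95 and 28.4 FPKM in C26 muscles and 20.3, 21.1 and 23.4 in controls, a log2 fold change of 1.32 (limma adjusted p = 0.0161). Hsf2 had 18.6, 16.5 and 21.9 FPKM against 11.1, 9.20 and 8.65 (log2 fold change 1.14, limma adjusted p = 0.00849), with its highest value in C26 replicate 3, unlike most of the chaperones. Hsf4, known from the lens, had 23.4, 20.7 and 9.03 FPKM against 7.83, 6.74 and 6.59 (log2 fold change 1.36, limma adjusted p = 0.0223). All 3 factors were above the controls in every C26 muscle. Of the 6 leave-one-out fits, Hsf1 passed in 3, Hsf2 in 6 and Hsf4 in 1. The inhibitor Hsbp1 and Hsf2bp did not pass. Among 12 prefoldin and phosducin-like genes, which feed clients to TRiC, 4 rose (Txndc9, Uri1, Pfdn2 and Uxt), beside 19.4% of all genes. By limma 0 fell, with 1 (Pfdn1) lower at an unadjusted p under 0.05. Txndc9, which binds TRiC, had 34.5, 36.5 and 24.6 FPKM in C26 muscles and 15.6, 13.9 and 20.2 in controls (log2 fold change 1.13, limma adjusted p = 0.00722). Uri1 and Pfdn2 rose by 0.91 and 0.81 on the log2 scale and were above the controls in every C26 muscle, at 14.4 to 18.2 against 8.49 to 10.8 FPKM and at 85.8 to 127 against 66.3 to 74.6 FPKM. Among 14 mitochondrial import and protease genes, 7 rose, beside 19.4% of all genes. By limma 0 fell, with 1 (Htra2) lower at an unadjusted p under 0.05. The inner membrane protease gene Afg3l2 had 133, 110.0 and 51.4 FPKM against 25.8, 29.6 and 22.7 (SE 0.35 on the log2 scale, limma adjusted p = 0.00911). The matrix protease subunits Clpx and Clpp rose by 1.61 and 1.51 on the log2 scale, Clpx to 72.4, 47.7 and 54.5 FPKM against 21.0, 26.3 and 17.6, and Clpp to 99.7, 129 and 55.9 FPKM against 34.8, 35.3 and 38.1. None of the 3 overlapped between the groups. The mitochondrial HSP90 gene Trap1 did not pass. Among J-domain proteins under other symbols, Sec63 and Gak rose. Sec63 had 13.7, 21.6 and 8.26 FPKM in C26 muscles against 6.26, 5.36 and 6.20 in controls. Gak, which uncoats clathrin vesicles, rose by 0.51 on the log2 scale.

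Immediate early genes were set beside the stress-inducible chaperones, since both can respond to handling of tissue. Of 9 such genes, 5 rose (Fos, Jun, Junb, Atf3 and Dusp1), beside 19.4% of all genes, and 4 did not pass. The sum of the 9 was 157 to 258 FPKM in C26 muscles and 66.0 to 91.7 in controls. C26 replicate 3 had the lowest sum of the C26 muscles, as it had for the chaperones. The part of handling in the chaperone values was not tested.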

How the data were processed

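Gastrocnemius RNA was sequenced as single-end 50-base reads after removal of ribosomal RNA, with random primers and no strand marking stated. The authors deposited FPKM per gene, estimated with RSEM and rounded to 2 decimals. The study's methods name bowtie2 and GRCm38.p5, and its discussion says that 1 transcript variant per gene, the highest, was kept. The submitters' processing notes list HISAT2 2.0.4, Bowtie2 2.2.5, RSEM 1.2.12 and mm9, so the build is uncertain, and coordinates here come from RefSeq GRCm38.p6. The extraction label also names infected THP-1 cells, another sample type. FPKM hold no read counts, so depth and counting error are unknown.

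Gene identifiers gave symbols for 13327 of 13363 genes. The FPKM were converted to TPM, normalized by TMM factors (trims of 30% and 5%), transformed as log2(TPM + 1) and tested with limma 3.58.1 in R 4.3.3, C26 against control, with Benjamini-Hochberg adjustment over all genes and no filter. The 2 groups of 3 muscles are separate mice. In data simulated from these values, 168 of 200 genes changed 4-fold were called (84%), with 5 unchanged genes called. The simulation held only 4-fold changes, so it does not show how often the smaller changes of most chaperone genes would be called. Groups came from the sample labels. Replicate numbers did not pair the muscles (correlations of same-numbered deviations -0.04, -0.08 and -0.11).

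Genes named with values were 14 well known chaperones and, per class or partner list, up to 3 higher and 3 lower genes with the largest change among those past the threshold. Other genes were named for their role. Members and lists were chosen with earlier results of these data known. Shared stretches of 50 bases were counted over GENCODE vM21 transcripts for 64 of the 65 genes. The exons of 27 of the 65 overlap another gene. Alternatives changed the pseudocount, filter, scaling, moderation and replicate block, and left out each muscle. Python 3.11.15 and matplotlib 3.10.9 were used for summaries and plots.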

Additional observations from a re-analysis of the deposited data

How the results depend on the processing

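The count of chaperone genes that rose was 34 with all muscles and moved to 21 with FPKM as deposited and to 14 with an ordinary linear model per gene, where the share of all genes that rose also moved, from 19.4% to 12.6% and 11.4%. The count that fell was 5. It was 8 with FPKM as deposited, 2 with an ordinary linear model and 2 with a replicate block. Over all 13363 genes the counts that fell were 1931, 2504, 959 and 1236 in the same order. Under the replicate block 24 chaperone genes rose, beside 13.8% of all genes. The numbers do not pair the muscles, and the cause of the lost calls was not tested. The count above 4-fold was 1 with an ordinary linear model, and 1 gene fell by over 4-fold with a pseudocount of 0.1. Partner genes that fell numbered 6 with FPKM as deposited, 6 after quantile normalization and 0 with an ordinary linear model, and those that rose numbered 16 after quantile normalization. The median log2 fold change was 0.41 with FPKM as deposited and 0.34 after quantile normalization. With a muscle left out, 8 to 41 chaperone genes rose, beside 8.46% to 24.8% of all genes. The chaperone genes that fell numbered 1 to 4, where 669 to 2160 of all 13363 genes fell. By over 4-fold 1 to 4 chaperone genes rose and 0 fell. Of the partner genes 13 to 32 rose and 0 to 4 fell, and the median of the chaperone genes was 0.58 to 0.82.

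Of the 26 chaperone genes that did not pass the test, 13 had both signs over the settings with all muscles and 8 over the fits that each dropped 1 muscle, and 0 of the 39 genes called did. For example, after quantile normalization Cct5 was at -0.027, Cct6b at 0.20, Dnajb1 at 0.14 and Hsp90aa1 at -0.21. Hsp90aa1 was at -0.028 with FPKM as deposited. Dnajb1 was at 0.023 with TPM without TMM and at 0.080 when the 20 most abundant genes were kept out of the scaling. With 1 muscle dropped, for example, Cct6b ranged from -0.059 to 0.023, Dnaja1 from -0.32 to 0.0059 and Dnajb1 from -0.19 to 0.28. Of the 39 genes called, 13 lost the call with FPKM as deposited, 12 after quantile normalization, 13 with the block and 23 with an ordinary linear model. None changed sign with FPKM as deposited or after quantile normalization. The block and the ordinary linear model cannot change a sign, since they leave the fold changes as they were. The intensity trend and the filter at a mean TPM of 1 lost 0 calls.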
